A study of Homo sapiens with 8 samples.

Results

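The BCL2 family decides whether the outer membrane of the mitochondria stays intact or is opened during apoptosis. The measurements here cover 10 of its genes, BCL2, BCL2L1, MCL1, BAX, BAK1, BID, BCL2L11, BBC3, PMAIP1 and HRK, chosen by symbol among the 16525 genes of the deposited expression table, in which all 10 were found. RNA was sequenced from EndoC-βH5 cells, a human beta-cell line derived from fetal pancreatic rudiments by immortalization with transgenes that were later removed. The comparison was between 4 libraries of untreated control cells and 4 of cells that received a mixture of IL-1β at 50 U/mL with IFNγ and TNFα, each at 1000 U/mL, for 48 h. It asks which members of the family changed at the RNA level when beta cells met the cytokines used as a model of islet inflammation. All cultures were of 1 cell line, and nothing in the labels says whether the replicates of a group were separate cultures, so p-values measure the spread between these libraries only.

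The members fall into 3 classes by what their proteins do. The guardians BCL2, BCL2L1 (Bcl-xL) and MCL1 hold the membrane closed by binding the other classes, and the effectors BAX and BAK1 form the openings through which cytochrome c leaves. The BH3-only proteins BID, BCL2L11 (Bim), BBC3 (Puma), PMAIP1 (Noxa) and HRK (known in rodents as DP5) block guardians or switch on effectors. Beta cells are known to die by this route when cytokines act on them, with Bim, Puma and DP5 among the BH3-only proteins studied there, and the amounts of free guardian and BH3-only protein, which RNA does not measure, set the outcome.

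A short segment shared by the family, BH3, through which BH3-only proteins bind guardians, has a core of leucine, any 3 residues, glycine or alanine, and aspartate. It was searched for in the principal coding sequence of each member (GENCODE 29 on GRCh38), and exactly 1 match was found in each of the 10. The matches of the 5 members that were called changed, of BBC3, the 1 member whose core holds alanine in place of glycine, and of BCL2L1, the most abundant member, are shown as 36 bases of coding sequence, 5′ to 3′ on the gene's strand, with the codons of leucine, glycine or alanine, and aspartate in capitals.
HRK (chr12:116881173-116881208, minus strand): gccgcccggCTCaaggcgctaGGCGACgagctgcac
PMAIP1 (chr18:59902664-59902699, plus strand): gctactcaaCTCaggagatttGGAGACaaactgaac
BCL2L11 (chr2:111150094-111150129, plus strand): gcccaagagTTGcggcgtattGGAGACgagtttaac
BBC3 (chr19:47226582-47226617, minus strand): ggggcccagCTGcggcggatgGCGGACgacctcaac
BAK1 (chr6:33575390-33575425, minus strand): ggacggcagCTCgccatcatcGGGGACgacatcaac
MCL1 (chr1:150578868-150578903, minus strand): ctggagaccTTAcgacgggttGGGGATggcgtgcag
BCL2L1 (chr20:31721925-31721960, minus strand): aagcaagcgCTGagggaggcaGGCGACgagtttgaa
The leucine is residue 37 of 91 in HRK, 29 of 54 in PMAIP1, 92 of 138 in BCL2L11, 141 of 193 in BBC3, 78 of 211 in BAK1, 213 of 350 in MCL1 and 90 of 233 in BCL2L1. The core alone does not single out the family, since 3712 of 13368 protein-coding genes tested (27.8%) hold at least 1 match.

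The deposited unit is CPM, the reads of a gene scaled to a common library total. Every library had 36577438 to 40117636 reads on the listed genes, and 1 read equalled 0.0196 to 0.0214 CPM. Column names carry no replicate number, but controls and cytokine libraries can be matched by the start of their names into pairs A, B, C and D. The names of A and B share a middle part and those of C and D another, and what this part stands for is not given in the sources used here. All 8 beta-cell markers searched for were in the table. Their sum was 23280 to 35885 CPM in control and 28733 to 52472 CPM in cytokine libraries. CHGA was the largest part of this sum, at a mean of 19221 and 25501 CPM, while INS measured 2169 and 1846 CPM. PDX1, SLC30A8 and NKX2-2 were called lower, with log2 fold changes of -0.78, -1.20 and -0.52. The groups of NKX2-2 overlapped, and its call was lost after TMM scaling (explained below), at -0.37. IAPP, at 0.93, was not called (limma, adjusted p = 0.077), but it was with the pairs as a block. The sum of 3 alpha-cell markers was 60.5 to 276 and 80.5 to 145 CPM, and that of 2 delta-cell markers 361 to 2158 and 473 to 1992 CPM. Among the alpha-cell markers IRX2 was called higher, by 0.91 on the log2 scale (limma, adjusted p = 0.0017), and CPA1, the 1 acinar marker in the table, was called lower, at -1.06 (limma, adjusted p = 0.002). No delta-cell, ductal or mesenchymal marker in the table was called. None of the 3 immune and 3 endothelial markers was among the listed genes, and the part of the other cell types in the results was not tested.

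Among the 10 members, 5 were higher after cytokines, none was lower and 5 were not called. Calls required a log2 fold change past 0.5 in either direction together with an FDR under 0.05, from limma on log2(CPM + 0.1) with p-values adjusted by Benjamini-Hochberg over the whole table. By this rule 9.52% of all genes were called higher and 17.5% lower, that is 1574 and 2896 genes, and after TMM scaling, which sets the bulk of genes equal between libraries, they were 2154 and 1933. The members that rose were the BH3-only genes HRK, PMAIP1 and BCL2L11, the effector BAK1 and the guardian MCL1, so that every class had at least 1 of them. In the same 5 members the lowest cytokine library exceeded the highest control library, which was the case for 10.8% of all genes, and in the other 5 members the groups overlapped. In no member was the reverse seen, against 21.9% of all genes. The median log2 fold change was 0.38 over the members and -0.17 over all genes. After TMM scaling the median over all genes was -0.02, and the changes of HRK, PMAIP1, MCL1, BAK1 and BCL2L11 were 2.74, 1.67, 1.22, 0.99 and 0.66 on the log2 scale. RNA of bulk cultures cannot tell fewer cells apart from less RNA per cell.

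**Figure D1:**
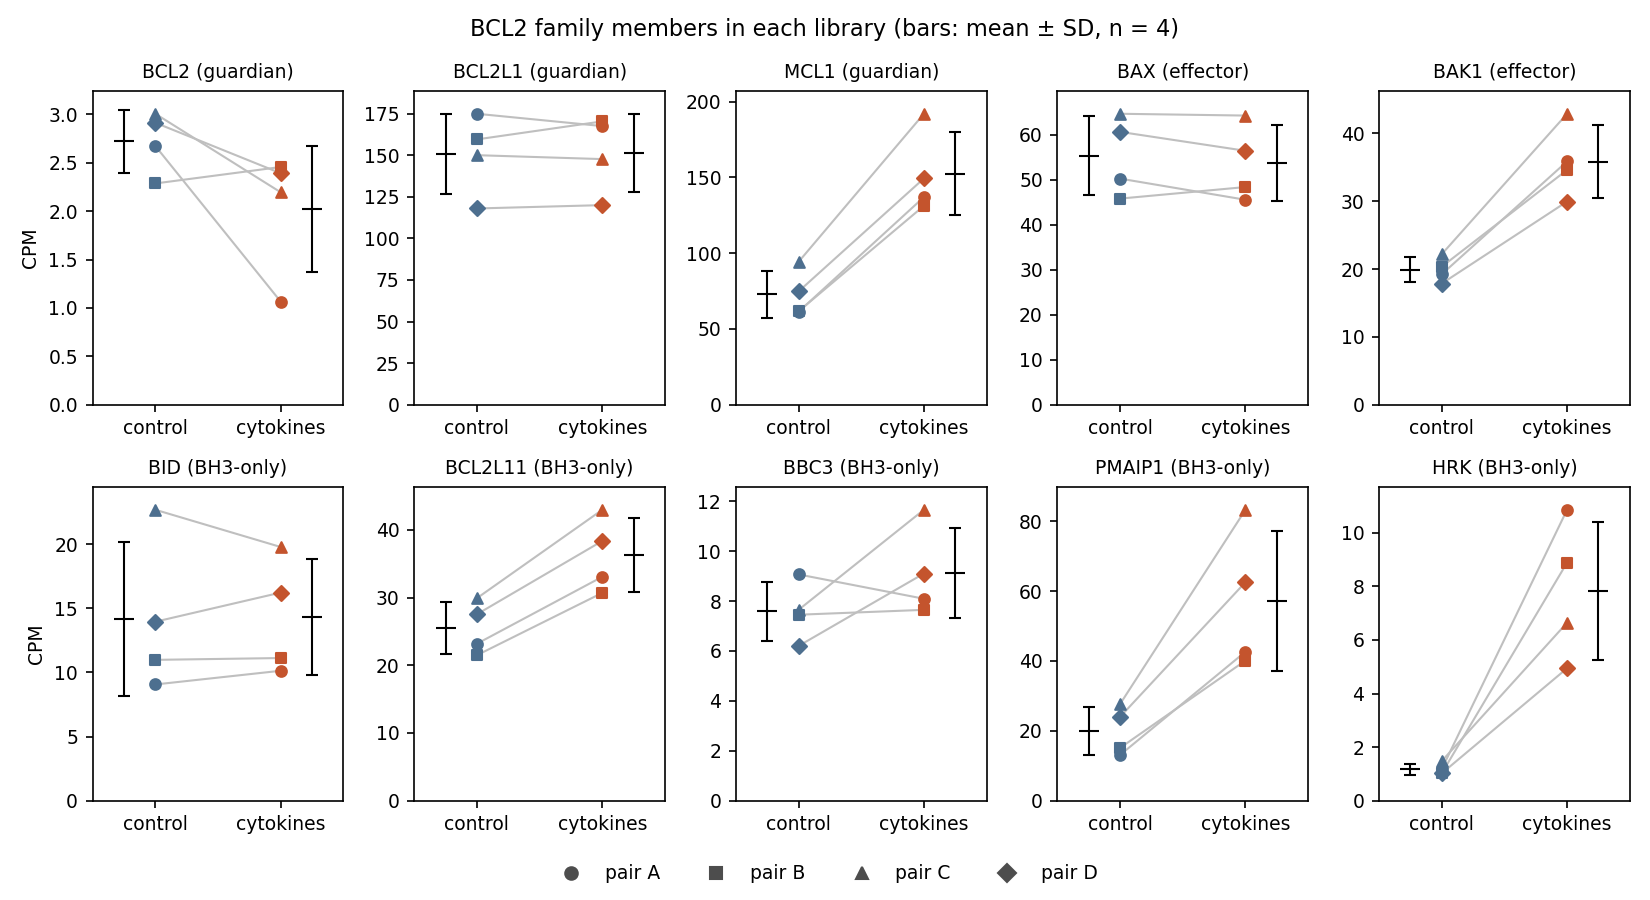
CPM of the 10 members in each of the 8 libraries, with lines joining libraries of a pair and bars giving the mean ± SD of 4 libraries per group. In HRK, PMAIP1, MCL1, BAK1 and BCL2L11 the cytokine libraries lie above every control, and in the other 5 members the groups overlap.

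HRK (ENSG00000135116, chr12:116856144-116881441, minus strand), a BH3-only gene best known from neurons, changed most among the members. Its levels were 1.18, 1.02, 1.47 and 1.02 CPM in control libraries A to D and 10.9, 8.88, 6.64 and 4.94 CPM in cytokine libraries A to D. The lowest cytokine library was above the highest control library, and the cytokine libraries spread over a wider range than the controls. The log2 fold change was 2.60 ± 0.26 (SE), a 6.05-fold rise (95% confidence interval 4.08 to 8.97; limma, adjusted p = 3.27e-05), which placed HRK 252nd of all genes by log2 fold change. The values rest on 48 to 510 reads per library. Within pairs A and B the rise was 3.06 and within pairs C and D it was 2.14 on the log2 scale.

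PMAIP1 (ENSG00000141682, chr18:59899948-59904306, plus strand) encodes Noxa, a BH3-only protein that binds MCL1 above all and promotes its degradation. It measured 13.1, 15.1, 27.7 and 24.0 CPM in the controls and 42.6, 40.1, 83.3 and 62.6 CPM after cytokines. Controls C and D stood above controls A and B, and the same order held among the cytokine libraries. PMAIP1 rose by 1.52 ± 0.28 (SE) on the log2 scale, a 2.86-fold rise (limma, adjusted p = 0.0024), and the changes of the single pairs ran from 1.38 to 1.70.

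BCL2L11 (ENSG00000153094, chr2:111119378-111168447, plus strand), the gene of Bim, which binds every guardian and can act on BAX and BAK1 directly, rose least of the 5. Its levels were 23.2, 21.5, 29.9 and 27.5 CPM in the controls and 33.1, 30.7, 43.0 and 38.4 CPM after cytokines. The lowest cytokine library exceeded the highest control library by little, while the changes within pairs, 0.51, 0.51, 0.52 and 0.48, were close to each other. The log2 fold change of 0.51 ± 0.15 (SE) was at the edge of the threshold (limma, adjusted p = 0.027). With the pairs as a block the log2 fold change was the same and the adjusted p was 3.84e-05 (limma). Without the block, the call was lost when control A, control B, cytokine C or cytokine D was left out. The log2 fold changes were then 0.46, 0.43, 0.42 and 0.47, with adjusted p-values of 0.061 to 0.081 (limma). In the annotation 727 exonic bases of the gene lie opposite exons of MIR4435-2HG, and the library kit keeps strand per the labels.

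The other BH3-only genes were not called. BBC3 (ENSG00000105327, chr19:47220822-47232766, minus strand), best known as a target of p53, measured 9.07, 7.45, 7.64 and 6.20 CPM in the controls and 8.09, 7.65, 11.7 and 9.10 CPM after cytokines. The groups overlapped, and the log2 fold change was 0.26 ± 0.18 (SE; limma, adjusted p = 0.31). It was 0.41 after TMM scaling (limma, adjusted p = 0.12). In edgeR, an alternative test, with TMM and the pairs as a block it was 0.42 (adjusted p = 0.027), under the threshold of 0.5. The pairs did not move alike, with changes of -0.16 in A, 0.04 in B, 0.60 in C and 0.55 in D. BID (ENSG00000015475, chr22:17734138-17774770, minus strand), which caspase-8 cleaves to carry death receptor signals to mitochondria, measured 9.07, 10.99, 22.7 and 13.96 CPM in the controls and 10.1, 11.1, 19.8 and 16.2 CPM after cytokines. Its log2 fold change was 0.05, with a 95% confidence interval of -0.60 to 0.70, which includes changes of the size seen in BCL2L11 in either direction.

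Of the effectors, BAK1 rose and BAX did not. BAK1 (ENSG00000030110, chr6:33572547-33580293, minus strand), whose protein sits in the mitochondrial membrane also in healthy cells, measured 19.2, 20.3, 22.2 and 17.9 CPM in the controls and 35.9, 34.6, 42.9 and 29.96 CPM after cytokines. The groups did not overlap, with an SD of 1.83 CPM in the controls and 5.35 CPM after cytokines. BAK1 rose by 0.84 ± 0.14 (SE) on the log2 scale, a 1.79-fold rise (95% confidence interval 1.45 to 2.21; limma, adjusted p = 0.001), with 0.74 to 0.95 in single pairs. BAX (ENSG00000087088, chr19:48954815-48961798, plus strand), whose protein moves from the cytosol to mitochondria on activation, measured 50.3, 45.8, 64.7 and 60.7 CPM in the controls and 45.6, 48.4, 64.3 and 56.5 CPM after cytokines. The groups covered nearly the same range. For BAX the log2 fold change was -0.04 (95% confidence interval -0.38 to 0.29; limma, adjusted p = 0.86), and 0.11 after TMM scaling.

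Of the guardians, MCL1 rose and BCL2L1 and BCL2 were not called. MCL1 (ENSG00000143384, chr1:150574551-150579738, minus strand) encodes a guardian whose protein is degraded within a short time of being made. It measured 61.3, 61.6, 94.2 and 74.7 CPM in the controls and 137, 131, 192 and 149 CPM after cytokines. The lowest cytokine library stood well above the highest control library. MCL1 rose by 1.07 ± 0.17 (SE) on the log2 scale, a 2.097-fold rise (95% confidence interval 1.62 to 2.72; limma, adjusted p = 8.93e-04), with 0.998 to 1.16 in single pairs.

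BCL2L1 (ENSG00000171552, chr20:31664452-31723989, minus strand), the guardian Bcl-xL, measured 175, 160, 150 and 118 CPM in the controls and 168, 170, 148 and 120 CPM after cytokines. Each cytokine library was close to its control, and the log2 fold changes of the pairs ran from -0.06 to 0.09. The log2 fold change was 0.01 with a 95% confidence interval of -0.34 to 0.36 (limma, adjusted p = 0.97), and 0.16 after TMM scaling. With TMM and the pairs as a block it was 0.17 (edgeR, adjusted p = 0.029), under the threshold of 0.5. In the annotation 1424 of its exonic bases lie opposite ABALON. BCL2 (ENSG00000171791, chr18:63123346-63320128, minus strand), the founding member of the family, was low, at 2.67, 2.29, 3.01 and 2.91 CPM in the controls and 1.06, 2.46, 2.19 and 2.39 CPM after cytokines. Cytokine library A held 50 reads against 108 to 151 in the controls. The log2 fold change was -0.47 ± 0.27 (SE; limma, adjusted p = 0.22), and it was -0.20 without cytokine library A.

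**Figure D2:**
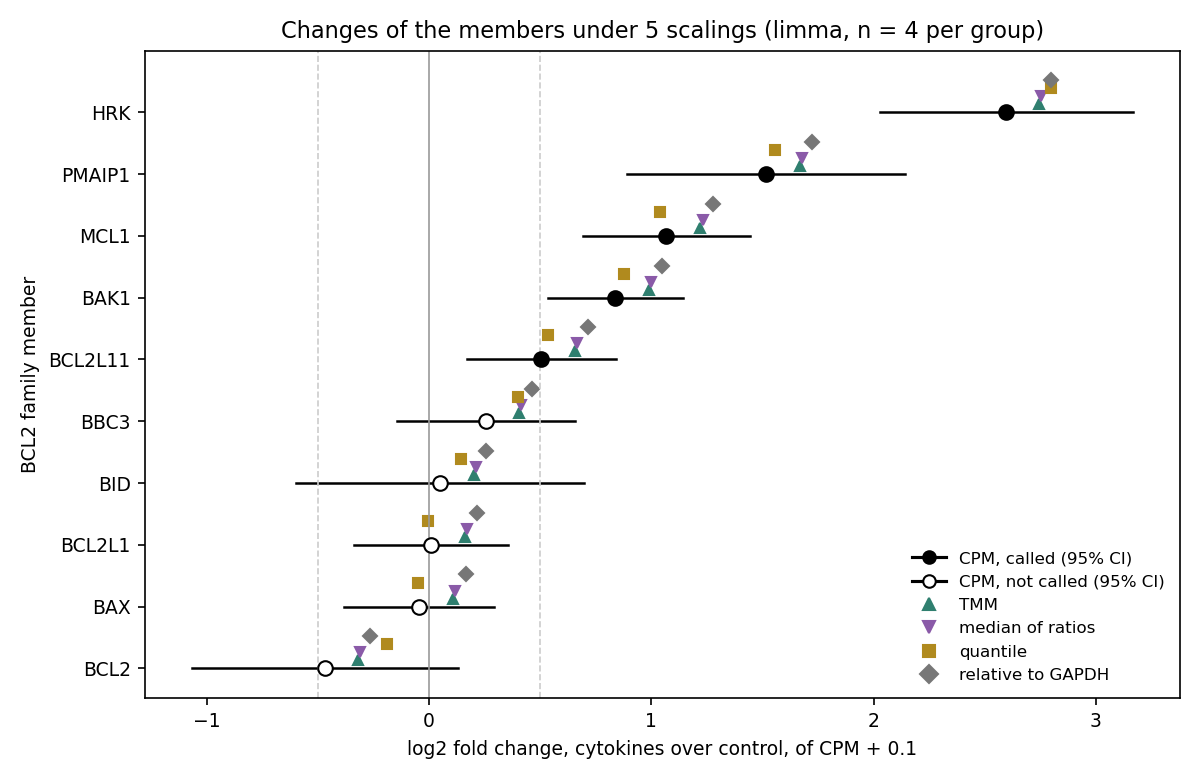
Log2 fold changes of the members with 95% confidence intervals (limma on CPM + 0.1, n = 4 per group; filled circles were called) and, above each, the value under 4 other scalings; dashed lines mark 0.5 in either direction. HRK, PMAIP1, MCL1, BAK1 and BCL2L11 lie past 0.5 under all 5 scalings, while BAX and BCL2L1 change sign between scalings.

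HRK, PMAIP1, MCL1 and BAK1 were called in each of the 21 alternative fits, and BCL2L11 in 15 of them. Exact permutation tests of single members (2-sided, 4 against 4 libraries) gave the smallest p this design allows, 0.0286, in all 5 of them. Any gene whose groups do not overlap receives this p, so it adds nothing to the separation described above. The unadjusted p of this test was 0.086 in BCL2 and 0.14 in BBC3.

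The size of the change was also compared between the 2 series of column names. HRK and BBC3, named after their values were seen, came closest to a difference, and neither passed adjustment. In HRK the interaction of cytokines and series, C and D minus A and B, was -0.92 on the log2 scale (limma, adjusted p = 0.999), and in BBC3 it was 0.64 (limma, adjusted p = 0.999). Over all genes 0.0303% passed an FDR of 0.05 in this test, and no member did. In both conditions PMAIP1, MCL1, BCL2L11, BAX and BID had higher CPM in libraries C and D than in A and B, and BCL2L1 had lower CPM.

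Levels were compared between members as TPM, computed here by dividing CPM by the exonic length of the gene in GENCODE 29 and setting each library to the same sum. In control cells the order was BCL2L1 (mean 172 TPM), BAX (83.4), MCL1 (65.2), PMAIP1 (35.5), BAK1 (34.5), BCL2L11 (14.9), BID (12.6), BBC3 (9.05), BCL2 (0.90) and HRK (0.66). Neighbours in this order overlapped in range except BCL2L1 and BAX, BAK1 and BCL2L11, and BBC3 and BCL2. After cytokines the order was BCL2L1 (187 TPM), MCL1 (146), PMAIP1 (109), BAX (87.2), BAK1 (67.2), BCL2L11 (22.9), BID (13.7), BBC3 (12.1), HRK (4.61) and BCL2 (0.73). MCL1 and PMAIP1 thus stood above BAX in the means, with overlapping ranges, and HRK stood above BCL2 without overlap.

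Of the guardians among the members, BCL2L1 and MCL1 together made up most of the RNA in both conditions. BCL2L2, a further family gene named after its values were seen, is not counted here. Its mean was 56.3 TPM in control cells and 62.1 TPM after cytokines. Of the summed TPM of the 10 members, BCL2L1 took 41.0% in control cells (34.0% to 48.2%) and 29.7% after cytokines (24.0% to 35.5%). MCL1 took 14.9% (12.8% to 17.0%) and 22.3% (20.7% to 23.6%), and PMAIP1 7.97% (5.34% to 10.3%) and 16.1% (12.4% to 20.1%). The shares of BCL2 were 0.21% and 0.11%, and those of HRK 0.15% and 0.75%. These shares depend on each other, since a rise of 1 member lowers the shares of the rest, and they are given without a test.

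**Figure D3:**
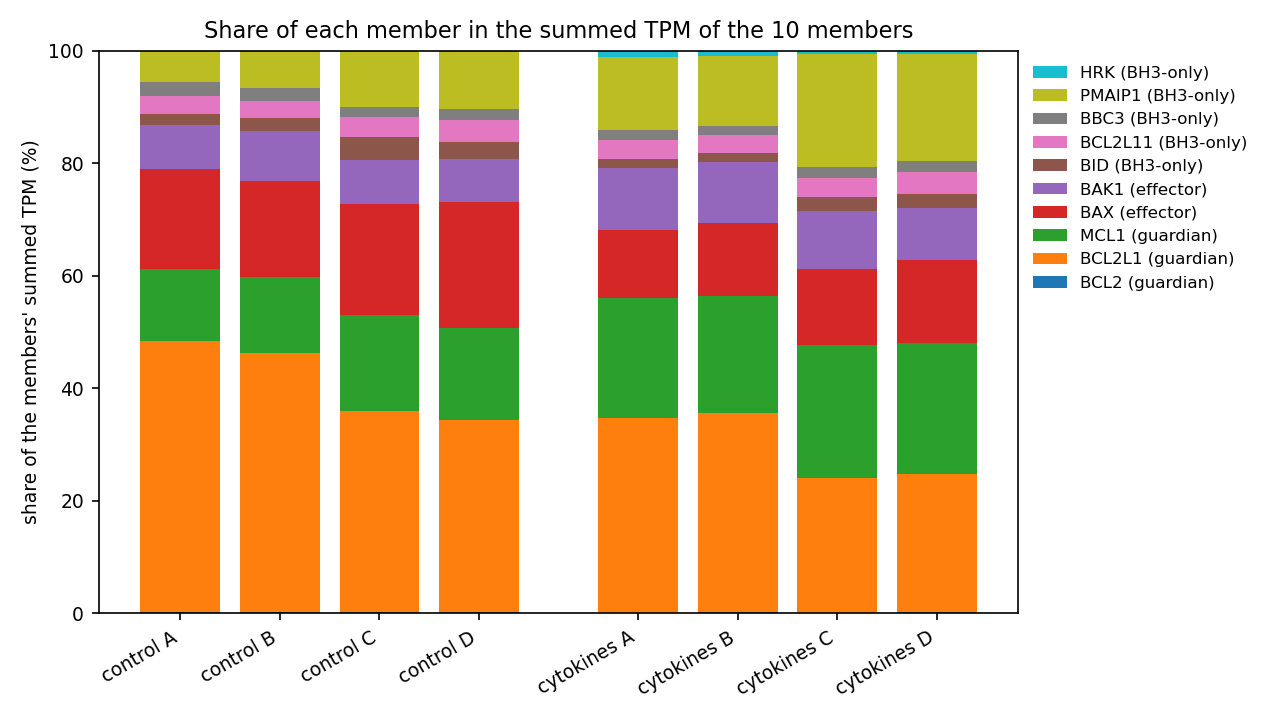
Share of each member in the summed TPM of the 10 members, in percent, in each library. The BCL2L1 share is 34.0% to 48.2% in controls and 24.0% to 35.5% after cytokines, and the MCL1 and PMAIP1 shares are larger after cytokines in every pair.

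Ratios of TPM between 2 members within a library do not depend on how libraries were scaled, but their size depends on the exonic lengths used. The ratio of MCL1 to BCL2L1 was 0.27, 0.29, 0.48 and 0.48 in controls A to D and 0.62, 0.58, 0.99 and 0.94 after cytokines, without overlap. The ratio of BAK1 to BCL2L1 was 0.16, 0.19, 0.22 and 0.23 in the controls and 0.32, 0.30, 0.44 and 0.37 after cytokines, also without overlap. The ratio of BAK1 to MCL1 went the other way, from 0.62, 0.65, 0.47 and 0.47 to 0.52, 0.52, 0.44 and 0.40, lower in all 4 pairs with overlapping ranges. PMAIP1 and MCL1, which bind each other as proteins, both rose, and their ratio was 0.42 to 0.63 in the controls and 0.60 to 0.85 after cytokines. These ranges overlapped, although the ratio was 1.25 to 1.48 times as high as in the control in every pair. The ratio of BAX to BCL2, often quoted for these genes, was 85.6 to 97.9 in the controls and 195, 89.6, 133 and 107.4 after cytokines, and its highest value came from the library with 50 BCL2 reads.

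**Figure D4:**
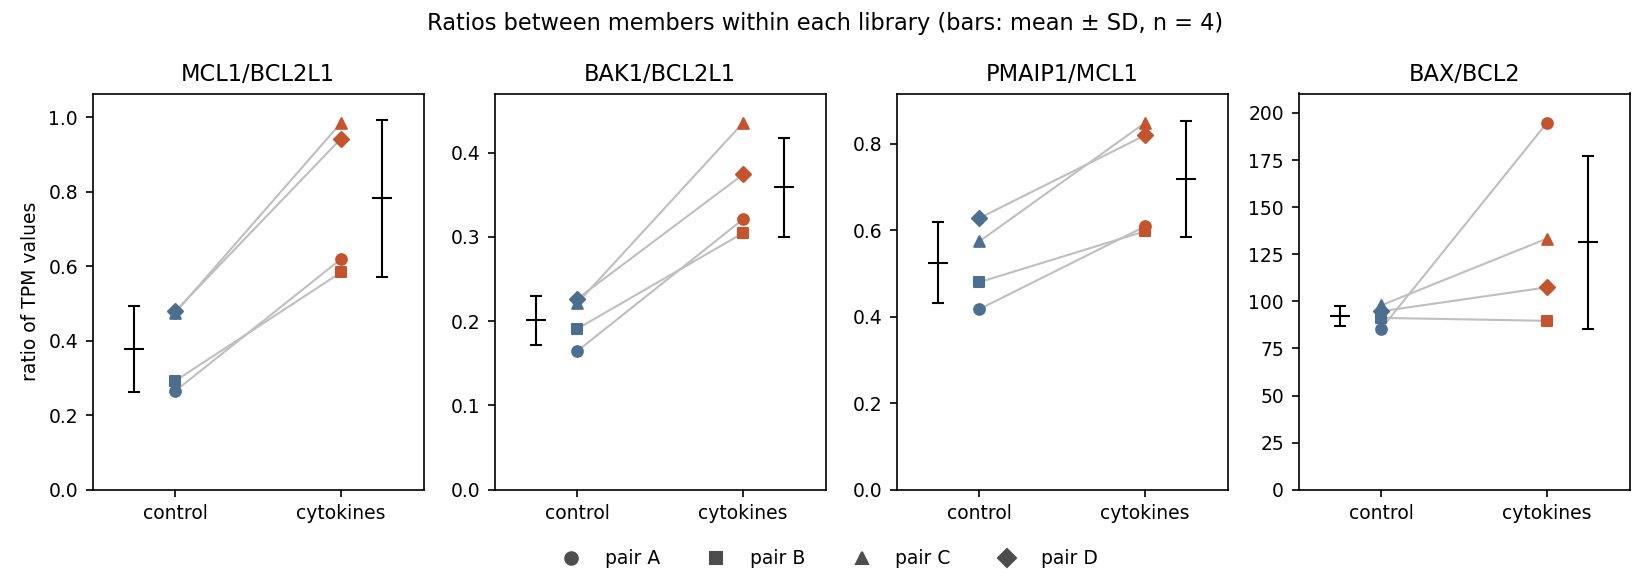
Ratios of TPM between members within each library, with lines joining pairs and bars giving the mean ± SD of 4 libraries. MCL1/BCL2L1 and BAK1/BCL2L1 do not overlap between groups, PMAIP1/MCL1 is higher after cytokines in all 4 pairs with overlapping groups, and the BAX/BCL2 value of 195 belongs to cytokine library A.

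Of 16 further family genes, 13 were in the table, and none was called higher and 2 were called lower, a share near the 17.5% of all genes. The median log2 fold change of the 13 was -0.01. BIK, a BH3-only gene of the endoplasmic reticulum, fell from 3.51, 1.88, 5.79 and 3.23 CPM in the controls to 0.62, 0.19, 1.45 and 1.33 CPM. The groups did not overlap, and the log2 fold change was -2.06 ± 0.51 (SE; limma, adjusted p = 0.011), on as few as 9 reads. BOK, an effector related to BAX and BAK1, fell from 52.9, 53.6, 50.7 and 38.4 CPM to 28.2, 29.9, 26.1 and 21.9 CPM, with a log2 fold change of -0.88 ± 0.15 (SE; limma, adjusted p = 0.0012). BNIP3, a receptor for mitophagy and the gene of highest mean CPM over all 8 libraries in this list, measured 72.1 ± 16.6 and 62.8 ± 11.4 CPM (SD, n = 4) and was not called (limma, adjusted p = 0.46). BCL2A1, BCL2L14 and BCL2L15 were not among the listed genes.

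Of 16 genes that act after the membrane has opened, 1 was called higher and 3 lower, with a median log2 fold change of -0.05. Both shares are near those over all genes, 9.52% and 17.5%. BIRC3, which encodes the inhibitor of apoptosis cIAP2 and is a classical NF-κB target, rose from 0.68, 0.97, 0.66 and 0.74 CPM to 4.22, 4.85, 6.02 and 10.01 CPM. This was a log2 fold change of 2.82 ± 0.28 (SE; limma, adjusted p = 3.15e-05). APAF1, the scaffold of the apoptosome on which caspase-9 is activated, fell from 15.6, 13.6, 19.2 and 19.2 CPM to 7.39, 7.69, 10.5 and 13.5 CPM, with a log2 fold change of -0.81 ± 0.21 (SE; limma, adjusted p = 0.014). The groups of APAF1 were separate by a narrow margin, and the call was lost relative to GAPDH, at -0.61.

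ENDOG, a nuclease released from mitochondria, had a log2 fold change of -0.70 (limma, adjusted p = 0.034), but its groups overlapped and the call was lost after TMM scaling (-0.55, adjusted p = 0.07) and when any library other than cytokine C was left out (-0.76 to -0.56). VDAC3, a channel of the outer membrane named after its values were seen, had a log2 fold change of -0.59 (limma, adjusted p = 0.018), which was -0.44 and not called after TMM scaling. Leaving out control C, control D or cytokine B also ended its call, at -0.48, -0.52 and -0.53. CYCS, which encodes cytochrome c and had the highest mean CPM over all 8 libraries in this list, measured 57.0 ± 17.4 and 69.8 ± 19.4 CPM (SD, n = 4) and was not called (limma, adjusted p = 0.37).

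Of 18 genes whose products are known to act on members, 7 were called higher and 1 lower, with a median log2 fold change of 0.15. Over all genes the shares were 9.52% higher and 17.5% lower. ATF3, a stress-induced partner of ATF4 known to act at the PMAIP1 promoter, rose from 2.095, 2.29, 2.03 and 1.41 CPM to 104, 107.3, 217 and 134 CPM. Its log2 fold change was 6.05 ± 0.24 (SE; limma, adjusted p = 2.41e-08). IRF1, a transcription factor induced by IFNγ, rose by nearly the same amount, 6.03 ± 0.15 (SE; limma, adjusted p = 8.74e-10). JUN, a component of the transcription factor AP-1 and, through its cytokine libraries, the gene of highest mean CPM over all 8 libraries in this list, rose by 4.01 ± 0.22 (SE; limma, adjusted p = 2.92e-07) from 33.7 to 56.9 CPM in the controls to 645 to 1158 CPM.

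The other genes called in this list are named after their values were seen. STAT3, FBXW7, DDIT3 and ATF4 were higher, with log2 fold changes of 1.92, 1.19, 1.06 and 0.74. FBXW7 encodes the substrate receptor of a ubiquitin ligase that marks MCL1 for degradation, and DDIT3 (CHOP) and ATF4 belong to the response to stress of the endoplasmic reticulum. E2F1, a transcription factor of the cell cycle, was lower by a log2 fold change of -1.62. All of the 8 calls of the list had cytokine and control libraries without overlap. Over all genes every cytokine library lay above the controls in 10.8% and below them in 21.9%.

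**Figure D5:**
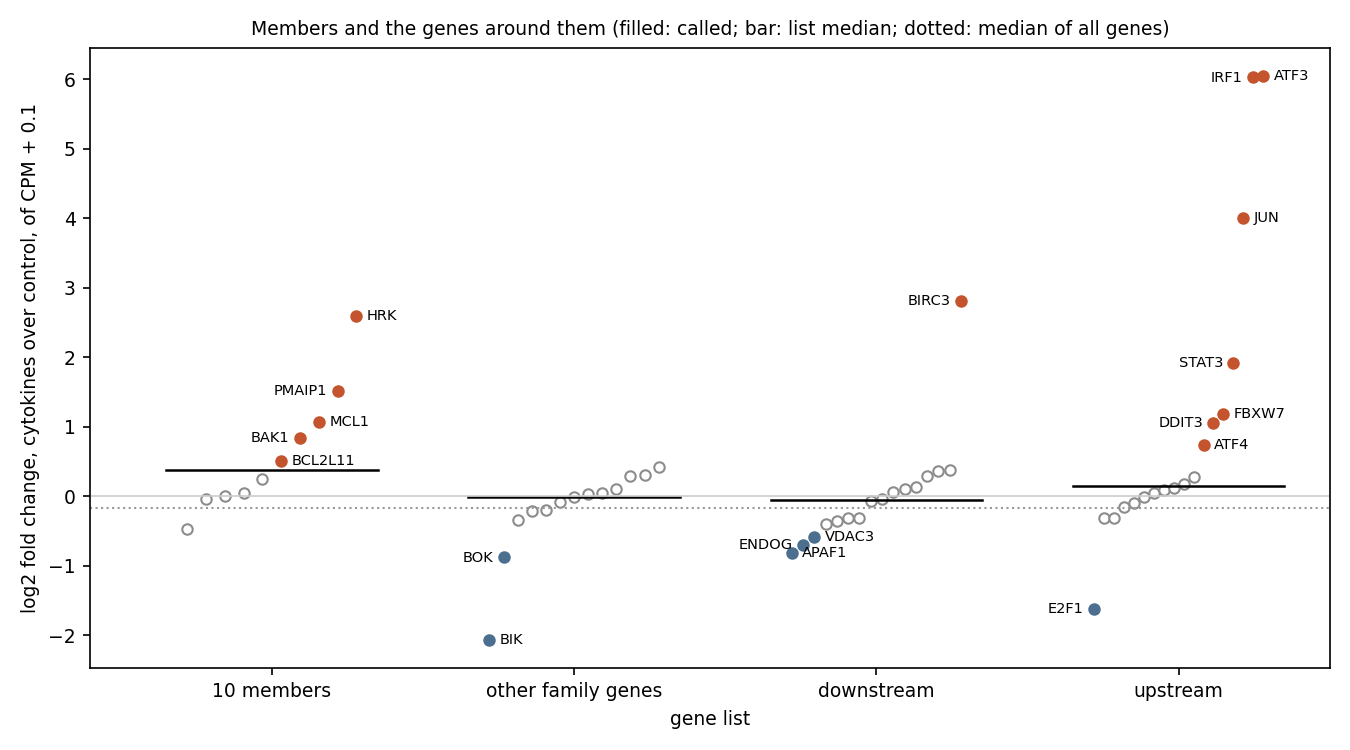
Log2 fold changes (limma on CPM + 0.1) of the 10 members, 13 other family genes, 16 downstream and 18 upstream genes; filled points were called, bars are list medians (0.38, -0.01, -0.05 and 0.15) and the dotted line is the median of all genes (-0.17). The 2 called genes among the other family genes fell, and the 5 called members rose.

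Since 5 members rose together, the 250 bases before the members' start sites were searched for 4 short motifs on both strands, in RefSeq sequences (GRCh38.p14). These were at hand for 9 members, among them 4 of the 5 that rose, and MCL1 was not searched. GAAANNGAA, a motif of IRF factors, and TTCNNNGAA, a motif of STAT factors, were in none of the windows of these 9. Over all tested genes with a window these motifs occur in 7.36% and 7.35%. TGACGT, the core bound by ATF and CREB factors, was in PMAIP1 alone, against 12.4% of genes, and CACGTG, the E-box, was found 4 times in BAX, once in BBC3 and in BID, against 11.04%. PMAIP1, which rose, and BAX, which was not called, are shown as the 120 bases before the first annotated transcribed base, 5′ to 3′ on the gene's strand, with motifs in capitals.
PMAIP1 (chr18:59899828-59899947, plus strand): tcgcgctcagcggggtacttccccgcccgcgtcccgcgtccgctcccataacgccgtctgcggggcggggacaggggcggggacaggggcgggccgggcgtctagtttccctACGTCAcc
BAX (chr19:48954695-48954814, plus strand): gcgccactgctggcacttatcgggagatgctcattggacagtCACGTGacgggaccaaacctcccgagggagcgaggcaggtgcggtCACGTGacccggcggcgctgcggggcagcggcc
In PMAIP1 the motif reads TGACGT on the other strand, and 2 of the 4 BAX matches lie in the stretch shown. A match describes the letters of the window, and binding was not measured here.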

How the data were processed

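RNA of 8 libraries, 4 control and 4 cytokine-treated, was compared. Per the methods, the authors aligned strand-specific reads with TopHat2 2.1.1 to GRCh38, counted them with HTSeq 0.9.1 on Ensembl release 107 and filtered genes at 0.5 CPM (4 samples or more). The deposited values are CPM, and 4 further value columns were not used. All values were whole multiples of 1 read (tolerance 0.001), so reads per gene could be recovered. A count of 0 allows 3 reads, 0.0587 to 0.0641 CPM, and read numbers cover counting error only.

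Groups were compared by limma 3.58.1 (R 4.3.3) with the intensity trend and without a block, on the log2 values of both groups. The study's edgeR test needs counts, so edgeR 4.0.16 and DESeq2 1.42.0 were run on recovered reads as alternatives, beside other scalings, pseudocounts (0.5 and 1 for 0.1), a filter at a mean of 1 CPM and fits without each library in turn. Limma with and without a replicate block, edgeR with TMM and DESeq2 were tested on simulated data, and the other fits were not. Pairs A to D come from the column names, and a replicate block was an alternative. Deviations from group means correlated by 0.46 to 0.75 within pairs. Control A with cytokine B gave 0.45 and control B with cytokine A 0.49, so these correlations do not tell pairs A and B apart. Control C with cytokine D gave 0.10 and control D with cytokine C 0.09. No library was a copy of another, the smallest chi-square per gene between replicates being 5.88, for cytokine libraries A and B. For controls A and B it was 13.2, and for all other replicates of a group it was 66.3 to 293. Libraries A and B were thus more alike than the other replicates, and whether they were independent cultures is not given. The tests count them as separate replicates. TPM used GENCODE 29 exon lengths (16167 genes matched).

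Members, lists and tests were chosen with earlier results of these data known. Named are all members, the called genes of the other family list, the 3 largest called changes of the downstream and of the upstream list, and in each list the gene of highest mean CPM over both groups. 1 gene of the upstream list is not reported here and was left out of that list's counts and median. Python 3.11.15 with pandas 2.3.3, scipy 1.17.1, numpy 2.4.6 and matplotlib 3.10.9 made tables and figures.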

Additional observations from a re-analysis of the deposited data

How the results depend on the processing

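The count of members called higher was 5 in the main test and 4 or 5 when single libraries were left out, none was called lower in any fit, and BCL2L11 accounted for the difference, with a log2 fold change of 0.50 and 0.49 at pseudocounts of 0.5 and 1. With a replicate block 5 members were called higher and 0 lower, and no call in the 3 other lists changed. Scaling by TMM, by median of ratios or relative to GAPDH, edgeR with TMM with or without a replicate block, and DESeq2 each called 1 other family gene higher in place of 0 and 3 downstream genes higher in place of 1. The genes gained, named after their values were seen, were BNIP2 (BCL2L13 relative to GAPDH), BIRC6 and XIAP. The same scalings and tests, apart from edgeR with the block, left 1 downstream gene called lower in place of 3 (0 relative to GAPDH). The median change of all genes was -0.17 on CPM and -0.02 after TMM. Leaving out single libraries gave 0 to 1 other family genes higher, the 1 without control D, and 1 to 3 downstream genes lower, with 1 without control C, control D or cytokine B. Signs turned in BAX, BCL2L1, BID, BNIP3 and, within single series of libraries, BBC3, none of them called. BBC3, 0.26 in the main test, was -0.063 within A and B and 0.57 within C and D. BAX, -0.04 in the main test, was 0.11 after TMM, 0.12 after median of ratios, 0.17 relative to GAPDH, 0.12 in edgeR with TMM, 0.12 in DESeq2, 0.11 in edgeR with TMM and the replicate block, and -0.13 to 0.036 with single libraries left out. BCL2L1 was -0.0061 after quantile normalization and -0.10 to 0.12 with single libraries left out, BID was -0.13 to 0.30 with single libraries left out, and BNIP3 was 0.019 relative to GAPDH. No fit gave a call for these 5 genes, and the cause of the turns was not tested. edgeR without TMM and the test of the 2 column-name series were chosen after seeing the data. Among the members BCL2 and HRK rest on the fewest reads, 48 to 151 in the controls.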
